A study of Mus musculus with 4 samples.

Results

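Liver carries out drug oxidation and hydrolysis outside the cytochrome P450 family through the flavin monooxygenases, the epoxide hydrolases, the aldehyde oxidases and monoamine oxidase B. The 9 genes described here are Fmo1, Fmo2, Fmo4 and Fmo5, Ephx1 and Ephx2, Aox1 and Aox3, and Maob. They were chosen by name, as non-P450 enzymes of drug oxidation and hydrolysis, with earlier results of these data known. Probes were assigned by matching the accession of each non-control probe to a gene, which gave 13 probes for the 9 genes, out of 39429 non-control probes and 17403 genes or other features that entered the test.

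Total RNA from mouse liver was hybridised to Agilent expression arrays with Cy3 as the only dye. There were 2 wild type livers and 2 Cyp3a-/- livers, the latter from mice in which the Cyp3a gene cluster, a group of P450 genes that oxidises many drugs and steroids, had been knocked out. The comparison asks how losing these P450s altered liver transcripts. Each liver came from a different animal and lay on an array of its own. The sources used here give no sex, age, strain, feeding state or treatment, nor the origin of the wild type mice. The labels name no deletion or agent that both groups share.

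Flavin monooxygenases use a bound FAD and NADPH to add an oxygen atom to the nitrogen or sulfur of drugs and dietary amines. Epoxide hydrolases add water to the reactive epoxides that P450s form, which turns them into diols. Aldehyde oxidases are molybdenum enzymes that oxidise nitrogen-containing rings and aldehydes, and monoamine oxidases are flavin enzymes of the outer mitochondrial membrane that deaminate amines.

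None of the 9 genes passed the threshold between genotypes. By limma with Benjamini-Hochberg adjustment over all features, 0 of 9 had an adjusted p under 0.05, where 48 of 17403 features (0.276%) did. At an unadjusted p under 0.05 the count was again 0 of 9, where 1745 features (10.0%) passed. The fitted log2 fold changes, Cyp3a-/- minus wild type throughout, ran from -0.20 for Aox1 to 0.26 for Maob, with 6 above 0 and 3 below. This split was not stable, since the sign turned with median scaling and with normexp background correction for Fmo1, with quantile normalization for Ephx1 and Ephx2, and on leaving out a liver for these 3 genes and for Fmo2, Fmo4 and Aox1. Their median was 0.08 and that of all features 0.01, and with quantile normalization the median of the 9 was -0.067. The median size of the change, without its sign, was 0.15 for the 9 genes and 0.20 for all features. All 9 genes were well above background on all 4 arrays, so each level was measured and not bounded. The values of both livers of each genotype did not overlap for 3 of the 9 genes, Fmo5, Aox3 and Maob, where 42.8% of all features (7443) had such a separation.

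The precision was limited by the number of arrays. The standard errors of the 9 log2 fold changes ran from 0.17 to 0.37. The 95% interval lay below a 2-fold rise for 9 of 9 genes and above a 2-fold fall for 8 of 9, the exception being Fmo2. These intervals rest on the spread between these livers and, through limma, on the spread of all features, and a p that misses the threshold does not show that a level stayed the same. Slide 1 carried both wild type arrays, while slides 2 and 3 each carried 1 Cyp3a-/- array. No slide held both genotypes, so slide and genotype cannot be told apart. The gap between the wild type livers lies within a slide, while that between the Cyp3a-/- livers crosses slides.

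**Figure D1:**
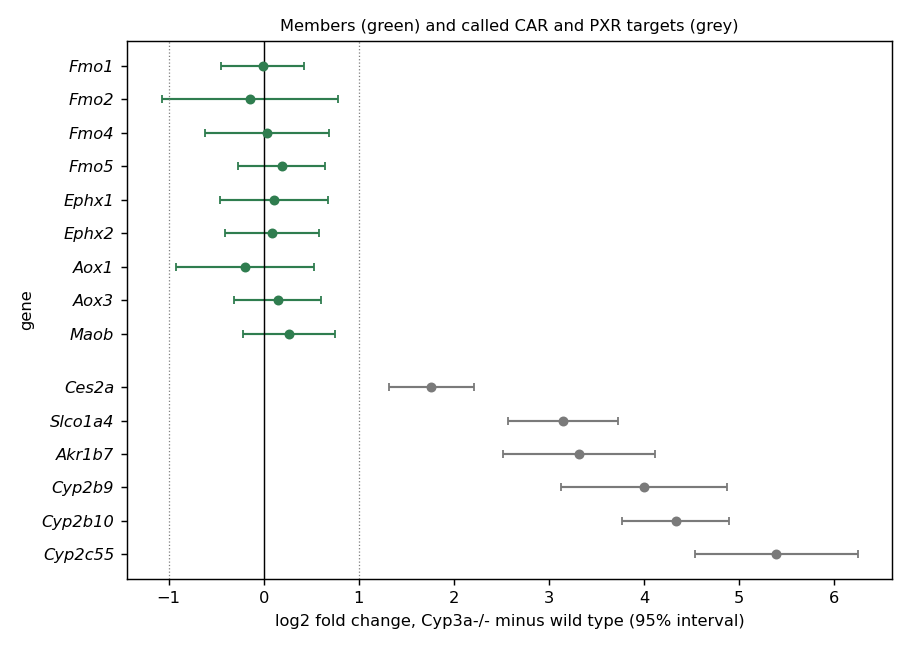
Log2 fold change (Cyp3a-/- minus wild type, horizontal axis) of the 9 genes (green) and of the 6 targets of the receptors CAR and PXR that passed the threshold (grey), with limma's 95% interval as bars and dotted lines at a 2-fold change. The 9 genes lie between -0.20 and 0.26 with every interval crossing 0, and the 6 targets lie between 1.76 and 5.39. The 6 targets were picked by the threshold in these same data, so their distance from 0 follows from that choice. The rest of the 22 tested targets are not drawn.

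Fmo1, the broad-specificity flavin monooxygenase of kidney and rodent liver, showed the narrowest range of the 9 genes. Levels are given as log2 signal above the 75th percentile of all probes on the same array. By this measure Fmo1 was 2.62 and 2.73 in the wild type livers and 2.64 and 2.68 in the Cyp3a-/- livers. Both Cyp3a-/- values fell between the wild type values. The log2 fold change was -0.01 ± 0.17 (SE, limma adjusted p = 0.989) with a 95% interval of -0.45 to 0.42, or 0.734-fold to 1.34-fold. Another Fmo1 probe gave 0.03 and 0.16 in wild type and -0.16 and -0.02 in Cyp3a-/- livers. There the genotypes did not overlap, and the change was -0.18 ± 0.18 (adjusted p = 0.767 over all 21504 kept probes).

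Fmo2, the flavin monooxygenase best known from lung, was the most scattered of the 9. Its log2 relative signal was -1.55 and -2.09 in wild type and -2.45 and -1.49 in Cyp3a-/- livers. Cyp3a-/- 1 was the lowest and Cyp3a-/- 2 the highest of the 4 livers, 1.94-fold apart, with both wild type livers between them. As large a gap between the Cyp3a-/- livers was found for 6.25% of features. The genotypes differed by -0.15 ± 0.37 (adjusted p = 0.911), and its interval of -1.07 to 0.78 (0.475-fold to 1.71-fold) includes a 2-fold fall.

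Fmo4, a less studied member of the family, was read by a dim probe, with processed intensities of 28.0 and 48.8 in wild type and 33.5 and 37.5 in Cyp3a-/- livers. On the log2 relative scale these were -3.48, -2.85, -3.23 and -3.04. The wild type livers were the lowest and the highest, 1.54-fold apart, and both Cyp3a-/- livers lay between them. The fitted change was 0.03 ± 0.26 (adjusted p = 0.974), with an interval of -0.61 to 0.68.

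Fmo5, which acts on ketones as a Baeyer-Villiger oxygenase and is abundant in liver, was represented by 3 probes. The brightest read 6.31 and 6.20 in wild type and 6.34 and 6.55 in Cyp3a-/- livers. Both Cyp3a-/- values were above both wild type values, by as little as 0.03 between the nearest pair. The log2 fold change was 0.19 ± 0.18 (adjusted p = 0.761; interval -0.27 to 0.65).

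The other two Fmo5 probes also read higher in the Cyp3a-/- group. The probe with the largest difference gave 2.10 and 2.12 in wild type and 2.76 and 2.45 in Cyp3a-/- livers, so the genotypes did not overlap. Its log2 fold change was 0.49 ± 0.19, with a limma p of 0.047 before and 0.493 after adjustment over the kept probes. The remaining probe stood at 0.21 ± 0.19 (adjusted p = 0.738), and there wild type 2, at 2.76, was close below the Cyp3a-/- values of 2.83 and 2.85. All 13 probes of the 9 genes were kept and 0 passed the threshold, where 58 of the 21504 kept probes did.

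**Figure D2:**
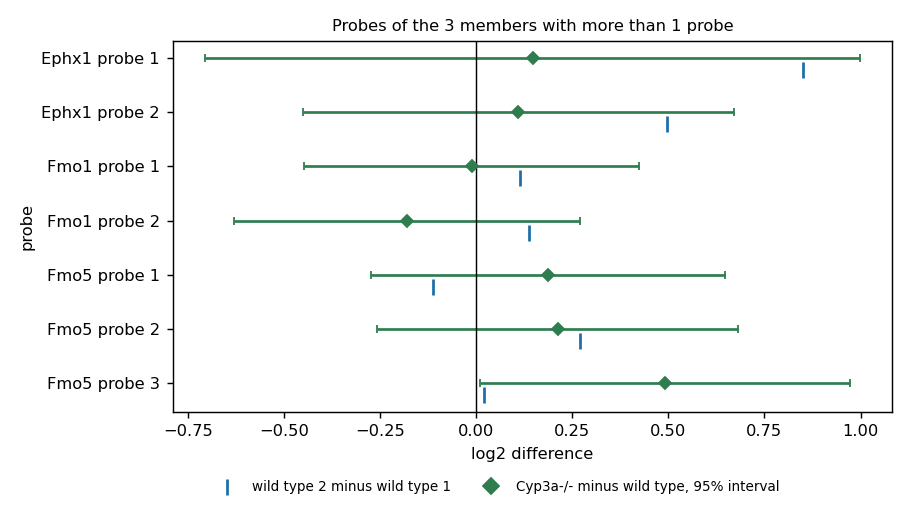
Log2 difference (horizontal axis) for each probe of the 3 genes read by more than 1 probe, as Cyp3a-/- minus wild type with limma's 95% interval (green diamonds and bars) and as the gap between the wild type livers (blue ticks). The 3 Fmo5 probes lie at 0.19, 0.21 and 0.49, and both Ephx1 probes have a wild type gap, 0.85 and 0.50, larger than their genotype difference, 0.15 and 0.11.

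Of 6 listed genes of the flavin monooxygenase family, these 4 could be tested, and the probes of Fmo6 and Fmo9 stayed at background on every array. Both probes of Xist, the RNA of the inactive X chromosome, were not well above background in the 4 livers, while the Y-linked Ddx3y and Eif2s3y were well above it in all 4. Of other Y-linked genes, each of 2 Uty probes was well above it on 3 arrays and Kdm5d on 0. In the RefSeq gene order of chromosome 1, Fmo4, Fmo1, Fmo2 and Fmo6 follow each other, with only a non-coding gene between Fmo1 and Fmo2. The first 3 of these genes were measured in every liver of both genotypes and Fmo6 in none.

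Ephx1, the microsomal epoxide hydrolase, is a textbook target of both CAR, the phenobarbital-responsive receptor, and NRF2, the sensor of electrophiles. Its log2 relative signal was 7.35 and 7.85 in wild type and 7.73 and 7.69 in Cyp3a-/- livers. Wild type 1 was the lowest and wild type 2 the highest, 1.41-fold apart, and the Cyp3a-/- livers lay between them, within 0.05 of each other. The fitted change was 0.11 ± 0.23 (adjusted p = 0.893), with an interval of -0.46 to 0.68 (0.728-fold to 1.60-fold). Another Ephx1 probe read 3.20 and 4.05 in wild type and 4.05 and 3.50 in Cyp3a-/- livers. On it, too, the wild type livers spanned the range, and the change was 0.15 ± 0.34 (adjusted p = 0.909).

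Ephx2, the soluble epoxide hydrolase that opens epoxides of fatty acids, varied more between the Cyp3a-/- livers than between the wild type livers. It read 5.94 and 6.02 in wild type and 6.23 and 5.90 in Cyp3a-/- livers. Cyp3a-/- 1 was the highest and Cyp3a-/- 2 the lowest, with the wild type values between them and 0.08 apart. The fitted difference came to 0.08 ± 0.20 (adjusted p = 0.906; interval -0.41 to 0.58).

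The epoxide hydrolase list, which also holds the leukotriene hydrolase gene Lta4h, has 5 genes. Of these, 4 were tested and 0 were called in either direction, and the list median was 0.10. Ephx3 had a fitted change of 0.24 ± 0.39, with the Cyp3a-/- livers at -1.65 and -2.80 and the wild type livers at -2.30 and -2.63. It turned to -0.34 without Cyp3a-/- 1. Ephx4 stayed at background on every array.

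The mouse has 4 aldehyde oxidase genes in tandem on chromosome 1, in the RefSeq order Aox1, Aox3, Aox4 and Aox2. Aox1 and Aox3 are the liver enzymes, while Aox4 is known from the Harderian gland and Aox2 from the nasal mucosa. The promoter windows of all 4 are shown because their array signals split along this line, the first pair well above background on all 4 arrays and the last pair on none. Each window runs from 250 bases before to 50 bases after the annotated start, 5′ to 3′ on the plus strand, from RefSeq on build GRCm38.p6. The positions are chr1:58029719-58030018 for Aox1, chr1:58112886-58113185 for Aox3, chr1:58210147-58210446 for Aox4 and chr1:58278076-58278375 for Aox2. Both strands were searched for 5 motifs, and capitals mark the matches. Core promoter motifs were the TATA box as TATAAA, the CCAAT box by its name, and the GC box as GGGCGG. The core motif bound by nuclear receptors was searched as AGGTCA. The core of the antioxidant response element, which NRF2 binds, was searched as TGACNNNGC and can overlap a reverse match to the receptor motif.
Aox1: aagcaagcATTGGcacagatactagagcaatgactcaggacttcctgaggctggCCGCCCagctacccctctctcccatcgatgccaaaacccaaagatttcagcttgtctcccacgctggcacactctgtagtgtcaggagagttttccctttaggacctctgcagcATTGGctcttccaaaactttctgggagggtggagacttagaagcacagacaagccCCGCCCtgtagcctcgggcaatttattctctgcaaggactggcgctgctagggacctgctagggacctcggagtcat
Aox3: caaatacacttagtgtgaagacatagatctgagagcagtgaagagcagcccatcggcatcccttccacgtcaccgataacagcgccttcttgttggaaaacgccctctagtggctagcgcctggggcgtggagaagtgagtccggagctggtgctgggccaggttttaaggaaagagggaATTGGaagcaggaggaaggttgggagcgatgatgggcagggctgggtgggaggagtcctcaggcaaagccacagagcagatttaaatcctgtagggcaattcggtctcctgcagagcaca
Aox4: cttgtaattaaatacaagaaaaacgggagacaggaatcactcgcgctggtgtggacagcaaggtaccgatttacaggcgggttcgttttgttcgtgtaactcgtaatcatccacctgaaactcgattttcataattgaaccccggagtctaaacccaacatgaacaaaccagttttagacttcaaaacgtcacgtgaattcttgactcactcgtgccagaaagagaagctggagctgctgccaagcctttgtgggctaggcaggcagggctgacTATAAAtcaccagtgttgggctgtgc
Aox2: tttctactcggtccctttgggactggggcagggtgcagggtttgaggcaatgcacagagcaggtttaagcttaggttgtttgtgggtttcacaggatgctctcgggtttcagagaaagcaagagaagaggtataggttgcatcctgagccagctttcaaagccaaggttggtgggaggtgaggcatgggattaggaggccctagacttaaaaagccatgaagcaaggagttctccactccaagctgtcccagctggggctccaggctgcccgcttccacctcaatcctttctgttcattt

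The Aox1 window held CCAAT matches 242 and 82 bases before the start and GGGCGG matches 196 and 27 bases before it. The Aox3 window held 1 CCAAT match, 70 bases before the start. The Aox4 window held TATAAA 24 bases after the annotated start, and the Aox2 window held none of the 5 motifs. Of 32851 RefSeq promoter windows of this length, 37.4% held CCAAT, 35.7% GGGCGG, 13.6% TATAAA, 16.3% AGGTCA and 12.4% TGACNNNGC. The matches are of letters only and do not show binding. Neither AGGTCA nor TGACNNNGC occurred in any of the 4 windows. Of the 9 genes, 6 had such a window. Among these, AGGTCA occurred in 1 of 2 Fmo2 windows, 9 bases before the start, and in the Fmo4 window, 75 bases before it.

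Aox1 had the widest gap between the wild type livers of the 9 genes. It read 3.62 and 4.40 in wild type and 3.81 and 3.82 in Cyp3a-/- livers. Wild type 2 was 1.72-fold above wild type 1, a gap matched by 4.53% of features, and the Cyp3a-/- livers, 0.01 apart, lay between them. The log2 fold change was -0.20 ± 0.29 (adjusted p = 0.848), with an interval of -0.92 to 0.53. Without wild type 2 it was 0.20, and without wild type 1 it was -0.59.

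Aox3 did not share that pattern. It read 4.38 and 4.16 in wild type and 4.39 and 4.44 in Cyp3a-/- livers, so wild type 2, the highest for Aox1, was the lowest for Aox3. The genotypes did not overlap, with wild type 1 and Cyp3a-/- 1 only 0.01 apart. The genotypes differed by 0.15 ± 0.18 (adjusted p = 0.813; interval -0.31 to 0.61).

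The other molybdenum enzymes gave small values as well. Of 8 such genes, 6 were tested, 0 were called in either direction, and their median was 0.02 (-0.064 with quantile normalization). Xanthine dehydrogenase (Xdh), which makes uric acid, stood at 0.00 ± 0.17 and the amidoxime-reducing enzymes Mtarc1 and Mtarc2 at -0.02 ± 0.18 and 0.21 ± 0.17 (adjusted p = 0.996, 0.972 and 0.710). With quantile normalization Mtarc1 stood at -0.24 and Mtarc2 at 0.0024. The molybdenum cofactor itself is built by a pathway of 6 listed genes, all tested, with 0 called in either direction and a median of 0.18. The smallest p-values there belonged to Mocs3, at -0.43 ± 0.22, and Mocs2, at 0.28 ± 0.17 (adjusted p = 0.588 and 0.630).

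Maob, which deaminates phenylethylamine and dopamine, had the largest positive change and the smallest p of the 9 genes. It read 4.26 and 4.10 in wild type and 4.31 and 4.57 in Cyp3a-/- livers. Both Cyp3a-/- values exceeded both wild type values, by 0.05 between the nearest pair. The log2 fold change was 0.26 ± 0.19, with a limma p of 0.231 before adjustment and 0.689 after it, and an interval of -0.22 to 0.74 (0.857-fold to 1.67-fold). A change of this size or larger was fitted for 39.9% of all features. Over the 4 arrays, the genes whose centred profiles lay nearest to that of Maob, among 13087 named genes, were Mad1l1 (Euclidean distance 0.0071 log2 units), Ipo11 (0.0072) and Dpp4 (0.0243). They were picked for likeness over 4 livers only.

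Maoa, the neighbour of Maob on chromosome X and the monoamine oxidase of serotonin, read -2.32 and -2.10 in wild type and -2.20 and -1.42 in Cyp3a-/- livers. Only Cyp3a-/- 2 stood above the wild type livers, and the change was 0.40 ± 0.30 (adjusted p = 0.688), or 0.011 without that liver and 0.79 without Cyp3a-/- 1. Among 8 tested of 10 genes that oxidise or methylate amines, 0 were called, with a median of 0.34. Of these 8, 1 gene, the nicotinamide methyltransferase Nnmt, had an unadjusted p under 0.05, in the higher direction, at 0.85 ± 0.30 (adjusted p = 0.450). Its log2 relative signal was 2.51 and 2.32 in wild type and 2.88 and 3.67 in Cyp3a-/- livers, so Cyp3a-/- 2 stood highest, and without that liver the change was 0.46. Inmt, which methylates indoles and was next by p, stood at 0.32 ± 0.18 (adjusted p = 0.601), or 0.11 with quantile normalization. The list median was 0.19 without Cyp3a-/- 2.

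Flavin monooxygenases and monoamine oxidases carry FAD. Of 5 listed genes for flavin uptake and synthesis, 4 were tested and 0 were called. Their median was -0.14, or 0.0035 without Cyp3a-/- 1, -0.28 without Cyp3a-/- 2 and -0.036 without a filter on dim probes. The riboflavin transporter gene Slc52a2 had the smallest p. It read 1.23 and 1.42 in wild type and 0.55 and 0.62 in Cyp3a-/- livers, without overlap. Its change of -0.74 ± 0.18 had a limma p of 0.0074 before adjustment and 0.292 after it. The mitochondrial folate and FAD carrier gene Slc25a32 was next, at 0.20 ± 0.18 (adjusted p = 0.737).

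The gaps within a genotype were set beside the genotype difference for all 9 genes. A gap between single livers is compared here with a difference between means of 2 livers, so an excess is common. For 9 of 9, the larger of the gaps between livers of the same genotype exceeded the genotype difference, which held for 71.3% of all features. For 6 of 9 the wild type gap alone exceeded it, against 48.8% of features. The larger gap and the genotype difference lay closest for Maob, at 0.263 and 0.260. Wild type 2 was the highest liver for 4 of the 9, Fmo1, Fmo4, Ephx1 and Aox1, and the lowest for 3, Fmo5, Aox3 and Maob. Over all features wild type 2 was the highest for 24.1%. Cyp3a-/- 2 was the highest for another 4, Fmo2, Fmo5, Aox3 and Maob.

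**Figure D3:**
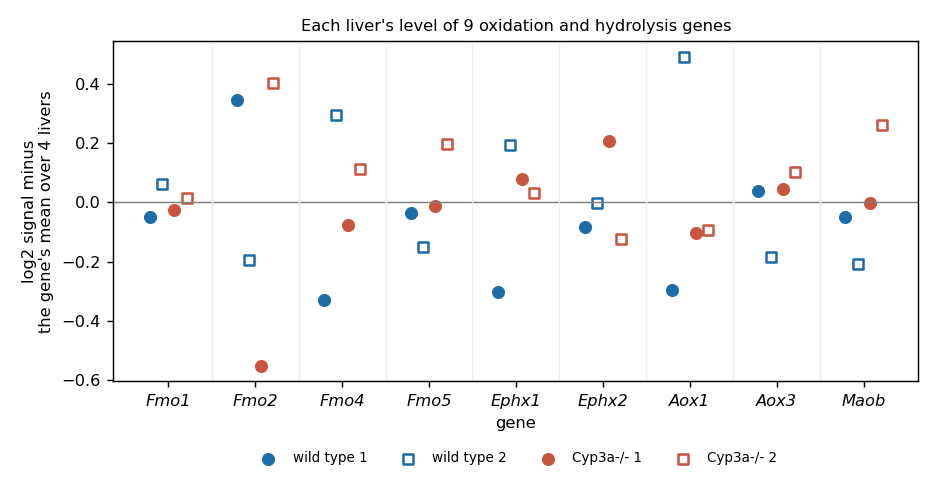
Log2 signal of each liver minus the gene's mean over the 4 livers (vertical axis) for the 9 genes (horizontal axis), in wild type (blue) and Cyp3a-/- (red) livers, replicate 1 as circles and replicate 2 as squares. Fmo1 spans 0.11 and Fmo2 0.95, and wild type 2 stands 0.49 above the mean for Aox1.

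**Figure D4:**
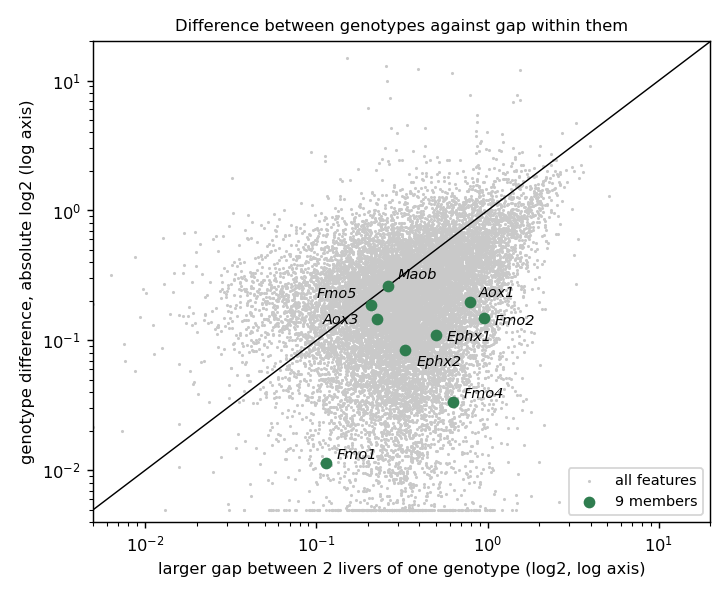
Size of the genotype difference (vertical, log axis) against the larger gap between the livers of the same genotype (horizontal, log axis) for all features (grey) and the 9 genes (green), in log2 units, with the line of equality and values under 0.005 drawn at 0.005. All 9 genes lie below the line, Maob, Fmo5 and Aox3 nearest to it, as do 71.3% of all features.

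NRF2 and PPARA targets also stood high in wild type 2. Of 13 tested NRF2 targets, wild type 2 was the highest liver for 9, and the median gap between the wild type livers was 0.47. The list had 0 genes called in either direction and a median change of -0.28. Its smallest p-values were those of G6pdx, of the pentose phosphate pathway, at -0.92 ± 0.19, and Srxn1, at -0.56 ± 0.25 (adjusted p = 0.246 and 0.549). Of 20 tested PPARA targets, wild type 2 was highest for 18 with a median wild type gap of 0.75, 0 were called, and the median change was -0.58. There the fatty acid transporter gene Cd36 stood at -1.41 ± 0.21 (adjusted p = 0.137), and the hormone gene Fgf21 read -3.90 and -0.62 in the wild type livers and was at background in both Cyp3a-/- livers (adjusted p = 0.253). It was at least 5.81-fold lower, a limit that came to 1.87-fold if set from wild type 1 and to 18.1-fold if set from wild type 2. The gaps of Aox1 and Ephx1, which respond to NRF2 activators in mouse liver, lie in the same direction, and the part of that liver's state in their values was not tested. Without wild type 2 the NRF2 median was 0.01 and the PPARA median -0.23.

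The 9 genes can be set beside the targets of CAR and PXR, receptors that switch on drug-metabolism genes. All 22 tested targets in that list were above 0, with a median of 0.97, while 0 were called lower and 6 were called higher. They were Cyp2c55 at 5.39 ± 0.34, the classic CAR target Cyp2b10 at 4.33 ± 0.23, Cyp2b9, whose mean log2 level went from -4.30 to -0.30 and which was well above background in 1 of the 2 wild type livers, Akr1b7 at 3.31 ± 0.32, Slco1a4 at 3.15 ± 0.23 and the carboxylesterase gene Ces2a at 1.76 ± 0.18 (limma adjusted p from 0.0040 to 0.040). Of these, Akr1b7 (log2 fold change 1.86) and Cyp2b9 (1.97) missed the threshold under normexp background correction (adjusted p = 0.073 for both). The list was compiled with results of these arrays known, so neither its direction nor the size of its changes is independent evidence. Without wild type 1 or without wild type 2, 0 genes of the list passed, while 6 passed without Cyp3a-/- 1 and 9 without Cyp3a-/- 2. Por, the NADPH reductase that feeds electrons to P450s, stood at 1.32 ± 0.20 (adjusted p = 0.137). With the brightest probe of each gene, the upper limits of the 9 genes' intervals reached at most 0.78. That limit was the one of Fmo2, whose standard error of 0.37 was the largest of the 9. Of the 22 tested targets, 12 had a fitted change above that limit and 10 did not. This count sets an interval limit against fitted changes and leaves out the targets' own intervals. For Ephx1, itself a known CAR target, the upper limit was 0.68. Dimmer probes reached higher limits, 0.998 for the other Ephx1 probe and 0.971 for the Fmo5 probe with the largest difference. Both limits lie near the list median of 0.97.

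**Figure D5:**
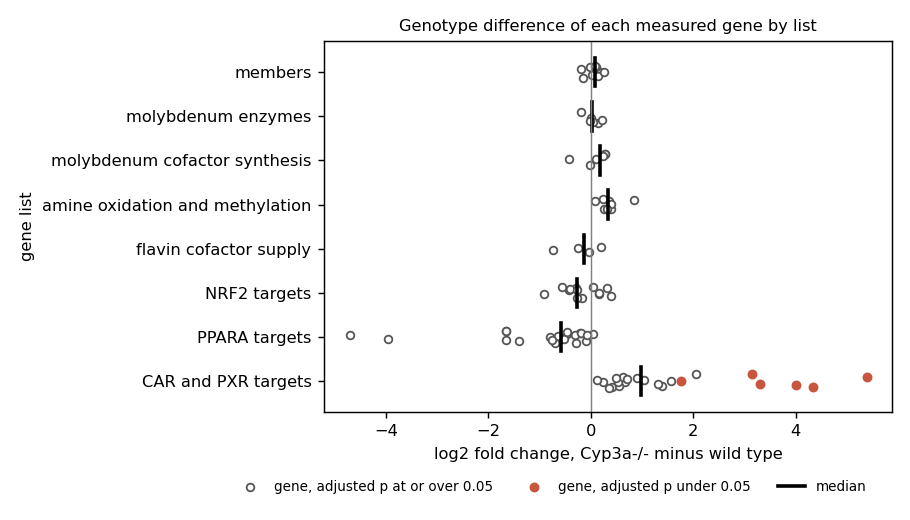
Log2 fold change (Cyp3a-/- minus wild type, horizontal axis) of every tested gene in 8 lists, with the 9 genes in the first line, the list median as a black bar and genes past the threshold in red; the lowest PPARA value is the fitted change of Fgf21, which was below background in the Cyp3a-/- livers. The medians of the 9 genes and of the molybdenum enzymes are 0.08 and 0.02, that of the CAR and PXR targets is 0.97, and red points occur only in that last list.

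Of the Cyp3a genes, 7 of 7 tested were called lower, 6 of them at background in both Cyp3a-/- livers. Per array, 54.4% to 56.4% of probes stood well above background and 0 spots were saturated. All 12 hepatocyte markers tested had 0 calls and a median of 0.10. Among pericentral and periportal markers, 0 of 11 and 0 of 12 were called, with medians of 0.15 and 0.22. By limma, 4 of the 11 and 2 of the 12 had an unadjusted p under 0.05, where 10.0% of all features did. Of these, 3 pericentral and 2 periportal markers were higher in Cyp3a-/- livers and 1 pericentral marker was lower. Of the markers of other cells, 11 of 11 for macrophages, 10 of 10 for stellate cells, 11 of 11 for endothelium, 6 of 7 for cholangiocytes, 8 of 11 for lymphocytes, 4 of 8 for neutrophils and 2 of 6 for adipocytes were measured, with 0 called in each, and Adipoq, Plin1 and Epcam were not well above background in both livers of either genotype. At a limma unadjusted p under 0.05, 1 macrophage and 2 lymphocyte markers passed, all lower in Cyp3a-/- livers. In these bulk samples, fewer cells of a type and less RNA per cell cannot be told apart.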

How the data were processed

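Signals are the processed intensity of each spot as deposited, which the authors extracted from the scans; the submitters' processing notes name Agilent Feature Extraction 11.5.1.1. The authors' deposited value table, used as an alternative, held log2 values that matched the scaling below after centring each probe on its median over the arrays, with 39417 probes and column medians of 0.06, -0.07, -0.02 and 0.02 (wild type 1 and 2, Cyp3a-/- 1 and 2). Its scale and centring were inferred by setting it against the scanner values, and its direction matched them.

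Control and outlier spots were left out (113 to 148 outlier spots per array). Signals were log2 intensity minus the array's 75th percentile (308 to 352 intensity units), and spots of a probe were averaged. A probe was kept if either genotype had it well above background on both of its arrays (21504 of 39429). Probes were named by accession, without version, from RefSeq genes of GRCm38.p6 (28019 named, 11410 not), used for names and gene order only. The kept probe with the highest mean signal stood for a gene. The test was limma's lmFit and eBayes (version 3.58.1, R 4.3.3), 2-sided, with Benjamini-Hochberg adjustment over 17403 features, at 0.05. Prior degrees of freedom were 3.54 and residual ones 2. The fit was tested on simulated data. P-values measure only the spread between these livers and that of all features. Per the labels, different animals were used in independent experiments; what a replicate number stands for is not stated.

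The 9 genes, lists and tests were chosen with earlier results of these data known, and some genes of these families and lists are not reported here, whatever their values. Named genes were the 9, called list genes or otherwise the 2 of smallest p, relatives in their families, and the 3 nearest profiles to the gene of smallest p. For a gene at background in a genotype, an "at least" fold was computed against the array's dimmest probe well above background, or the gene's own signal where higher, averaged over the arrays. The alternatives varied the background correction (normexp, offset 50, on the median spot signal, since the files used here hold no mean signal), scaling, filter, outlier spots, probe choice, replicate block, slide and source of values, and left out each liver. No per-sample column was left unused (0).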

Additional observations from a re-analysis of the deposited data

How the results depend on the processing

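None of the 9 genes was called under any of the 14 alternatives, and none had an unadjusted p under 0.05 in them. Of 126 values (9 genes, 14 alternatives), 43 equalled the reported change, since blocks, filters and the probe rule leave most of these fold changes as they are. Of the other 83, 70 kept their direction and 13 changed sign. Fmo5, Aox3 and Maob did not change sign, with ranges of 0.02 to 0.49, 0.03 to 0.26 and 0.13 to 0.39, the highest Fmo5 value coming from the authors' table, where another probe stood for the gene. The median of the 9 was 0.045 to 0.13 when a liver was left out and -0.067 with quantile normalization.

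Leaving out each liver in turn gave log2 fold changes from -0.068 to 0.046 for Fmo1, -0.63 to 0.33 for Fmo2, -0.28 to 0.35 for Fmo4, -0.14 to 0.36 for Ephx1, -0.081 to 0.25 for Ephx2, -0.59 to 0.20 for Aox1, -0.041 to 0.049 for Xdh, -0.11 to 0.056 for Mtarc1 and -0.34 to 0.81 for Ephx3. The genotype left with a lone liver is then assumed to vary like the other. The sign also turned with quantile normalization for Ephx1 (-0.11), Ephx2 (-0.091) and Xdh (-0.020), with normexp for Fmo1 (0.0097) and Mtarc1 (0.0024), and with median scaling for Fmo1 (0.019) and Mtarc1 (0.0060). These values lie within their standard errors of 0, and the cause was not tested.

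Over all features, 659 genes were called with median scaling, 13 without a filter on dim probes, 9 when a probe had to be above background on all 4 arrays, and 7 (without wild type 2) to 506 (without Cyp3a-/- 2) when a liver was left out, where the full set gave 48; without wild type 1 there were 8 and without Cyp3a-/- 1 94. The share of calls that were higher was 64.6%, against 58.9% with median scaling and 62.5% with quantile normalization, but 30.8% without a filter, 12.5% without wild type 1, 14.3% without wild type 2, 50% without Cyp3a-/- 1 and 81% without Cyp3a-/- 2. In the CAR and PXR list, 11 genes were called with median scaling, 1 without a filter and 3 with the stricter one. Ces2a and Akr1b7 each missed the threshold under 7 alternatives, for Ces2a the replicate block among them (adjusted p = 0.062), and Por and Cd36 passed with median scaling (adjusted p = 0.0014 and 0.0010). The replicate block gave 58 calls, 0 of them among the 9 genes. Same-numbered livers did not deviate together (correlation -0.10), and a crossed block, added after seeing the data, gave 56. The planned slide block could not be run, since duplicateCorrelation gave no estimate from 4 arrays. In its place came a random slide block at a correlation of 0.355, taken from the gaps between livers and chosen after seeing the data. It gave 33 calls, 0 among the 9 genes. Since no slide held both genotypes, this block cannot separate slide from genotype. The number of arrays limits the precision.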
